A study of Mus musculus with 3 samples.

Results

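In an RNA-seq series of mouse embryonic stem (ES) cells, transcripts were listed by locus, and some loci carried the names of several genes at once. Such a merged locus was recognised by a comma in its reference gene name, for example Yjefn3,Ndufa13. There were 1211 merged loci of 27425 loci in WT (4.42%), 1202 of 27403 in Pcgf1-/- (4.39%) and 1234 of 27460 in Pcgf1-/-+Pcgf1 (4.49%). Of the 1624 different name strings, 922 occurred in all 3 samples, which was 76.1% of the merged loci of WT, 76.7% of those of Pcgf1-/- and 74.7% of those of Pcgf1-/-+Pcgf1. The comparisons between samples are made on these 922 loci. A further 179 strings occurred in 2 samples and 523 in 1 sample, so that the same stretch of genome was joined or named differently from sample to sample.

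WT are C57BL/6 mouse ES cells. Pcgf1-/- ES cells carry a CRISPR/Cas9 deletion in Pcgf1, the gene of a RING finger subunit of Polycomb repressive complex 1 (PRC1), and come from a colony of edited cells. Pcgf1-/-+Pcgf1 ES cells carry the same deletion and received FLAG-tagged Pcgf1 by lentivirus. All were grown on mitomycin-C inactivated mouse embryonic fibroblast feeders with leukemia inhibitory factor. Triplets of values are given in the order WT, Pcgf1-/-, Pcgf1-/-+Pcgf1. Each condition was 1 library, so the differences have no replicate check and no test was possible. In place of a test, a locus was called when its values in 2 samples differed by more than 2-fold after 0.1 FPKM was added to each (FPKM, fragments per kilobase of exon, normalised to the mapped fragments of the library). Pcgf1 itself was listed at 14.0 FPKM in WT, 5.88 in Pcgf1-/- cells and 7.86 in Pcgf1-/-+Pcgf1. These values come from first or last exons, whereas the deletion takes out internal exons, so they do not measure the deleted part. Whether transcripts of the lentivirus entered them was not tested. The ES cell factor Pou5f1 was high in all samples, at 670, 518 and 626 FPKM.

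A transcript assembler rebuilds transcripts from overlapping reads. Where 2 genes on a strand overlap, or where reads run on from one into the next, it can place both in 1 locus, and a small RNA gene in an intron can share the locus of its host. Which of these events gave a locus its names was not tested. Many snoRNAs are cut out of the introns of ribosomal protein and other housekeeping genes, and many miRNAs out of the transcripts of longer host genes. The libraries were made from poly(A) RNA, so the values are those of the long host transcripts and not of mature miRNAs or snoRNAs. PRC1.1, the PRC1 variant that holds Pcgf1, is brought to CpG islands by Kdm2b, whose zinc finger binds unmethylated CG dinucleotides, and it ubiquitinates histone H2A through Rnf2 (Ring1B). Kdm2b, Rnf2, Sox2 and Neurod1 all stood in merged loci in at least 1 sample.

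The windows around the start sites of 3 of these genes are shown because the first exons listed in the merged loci were compared with them. They are RefSeq windows on GRCm38.p6, each of 300 bases from 250 before to 50 after a start site, on the strand of the gene, with every CG in capitals. CG was the only motif counted and reads the same on both strands.
Kdm2b upstream start, chr5:122989050-122989349, minus strand: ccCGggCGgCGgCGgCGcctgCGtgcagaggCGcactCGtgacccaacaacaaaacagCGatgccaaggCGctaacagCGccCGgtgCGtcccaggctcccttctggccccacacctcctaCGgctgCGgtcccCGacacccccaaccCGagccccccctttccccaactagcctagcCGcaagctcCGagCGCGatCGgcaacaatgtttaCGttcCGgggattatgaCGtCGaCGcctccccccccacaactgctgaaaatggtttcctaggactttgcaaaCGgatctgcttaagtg
Kdm2b internal start, chr5:122900301-122900600, minus strand: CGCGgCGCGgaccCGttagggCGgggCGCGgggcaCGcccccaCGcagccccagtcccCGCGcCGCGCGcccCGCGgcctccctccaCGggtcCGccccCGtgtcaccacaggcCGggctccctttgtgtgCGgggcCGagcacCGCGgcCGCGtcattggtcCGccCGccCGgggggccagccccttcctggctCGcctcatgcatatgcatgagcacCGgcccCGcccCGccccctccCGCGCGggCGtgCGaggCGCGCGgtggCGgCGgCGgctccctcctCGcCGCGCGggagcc
Sox2, chr3:34649745-34650044, plus strand: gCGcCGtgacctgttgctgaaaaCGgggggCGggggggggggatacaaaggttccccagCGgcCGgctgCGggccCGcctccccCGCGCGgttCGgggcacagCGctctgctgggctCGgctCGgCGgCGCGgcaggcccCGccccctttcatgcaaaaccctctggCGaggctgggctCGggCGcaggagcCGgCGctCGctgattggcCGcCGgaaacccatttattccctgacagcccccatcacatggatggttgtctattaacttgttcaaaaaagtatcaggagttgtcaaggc
Neurod1, chr2:79456587-79456886, minus strand: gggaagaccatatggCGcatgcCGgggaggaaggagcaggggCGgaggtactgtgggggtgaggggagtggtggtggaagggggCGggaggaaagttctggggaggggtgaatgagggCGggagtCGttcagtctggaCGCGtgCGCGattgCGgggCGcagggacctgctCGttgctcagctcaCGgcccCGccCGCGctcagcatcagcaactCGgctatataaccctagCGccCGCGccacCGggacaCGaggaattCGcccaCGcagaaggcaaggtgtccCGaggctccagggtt
The Kdm2b internal window held 49 CG, a count that 1.02% of the 32851 windows of this length reached. The Kdm2b upstream window held 28 (reached by 14.2% of windows), the Sox2 window 27 (15.5%) and the Neurod1 window 26 (16.9%). The median over all windows was 7, and 94.6% of windows held at least 1 CG.

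The mature miRNAs of the merged loci Meg3,Gm27300,Mir1906-1,Mir770 and Mirg,Mir382,Mir134,Mir668,Mir485,Mir377,Mir412,Mir369,Mir410,Mir3072 are shown because these long non-coding host transcripts were among the loci with lower values in Pcgf1-/-. The sequences are from RefSeq on GRCm38.p6 (chromosome 12, plus strand), 1 arm for each of the 11 hairpins, with the seed (bases 2 to 8) in capitals.
mmu-miR-1906: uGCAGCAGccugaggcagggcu
mmu-miR-770-3p: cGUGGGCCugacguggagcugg
mmu-miR-382-3p: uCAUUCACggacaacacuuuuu
mmu-miR-134-3p: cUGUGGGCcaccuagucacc
mmu-miR-668-3p: uGUCACUCggcucggcccacuacc
mmu-miR-485-3p: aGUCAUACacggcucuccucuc
mmu-miR-377-3p: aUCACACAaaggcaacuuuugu
mmu-miR-412-3p: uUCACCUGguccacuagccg
mmu-miR-369-3p: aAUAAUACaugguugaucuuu
mmu-miR-410-3p: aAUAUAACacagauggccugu
mmu-miR-3072-3p: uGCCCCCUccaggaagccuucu
All 11 hairpins had at least 1 mature sequence in RefSeq, 20 in all, and no 2 of the 20 shared a seed.

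Most merged loci joined few genes. Of the 1211 in WT, 935 had 2 names, 203 had 3 and 73 had 4 or more, and the other samples were similar, with 928, 202 and 72 in Pcgf1-/- and 962, 199 and 73 in Pcgf1-/-+Pcgf1. The longest string held the 39 names of the protocadherin alpha and gamma clusters, cell adhesion genes whose many first exons share the same last exons. Its summed level was 27.6 FPKM in WT, 26.9 in Pcgf1-/- cells and 18.0 in Pcgf1-/-+Pcgf1. The next longest were Gas5, a non-coding snoRNA host, and Mirg, with 10 names each, and Snhg1, another snoRNA host, and the Ugt1a cluster of glucuronosyltransferases, with 9 each. Gas5 was at 173, 188 and 160 FPKM and Snhg1 at 75.8, 79.8 and 73.6 FPKM in WT, Pcgf1-/- and Pcgf1-/-+Pcgf1, whereas the Ugt1a cluster was listed at 0, 0.0159 and 0.0261 FPKM.

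By the kinds of gene they joined, 332 of the 922 loci held 2 or more protein-coding genes, 191 were hosts of a miRNA and 143 held 1 protein-coding gene with other long transcripts. Another 51 were hosts of a snoRNA, 43 hosts of another small RNA, 56 held no protein-coding gene and 106 held a name that could not be matched to a gene of its own. Of the 3543 names that were merged in any sample, 3365 (95.0%) could be matched to GENCODE or RefSeq, of which 2177 were protein-coding, 289 miRNAs and 149 snoRNAs. Among 234 loci of exactly 2 protein-coding genes the genes were on the same strand in all 234. Every merged locus was listed on a single strand, so a shared strand can follow from how loci are built and is no finding. In 38 of these pairs one gene lay inside the other, in 112 the genes overlapped in part, and in 84 they lay apart, with a median gap of 4846 bp and a largest gap of 188153 bp. The median merged locus was 28.1 kb long.

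The snoRNA hosts were few but carried the most signal. They were 5.53% of the 922 loci and held 40.2% of the summed FPKM of these loci in WT, 42.2% in Pcgf1-/- cells and 40.1% in Pcgf1-/-+Pcgf1, with a median level of 148, 151 and 152 FPKM. The 19 loci of all kinds that held a ribosomal protein gene had 41.3%, 43.3% and 41.4% of the FPKM. The translation elongation factor locus Eef1a1,Gm26377 was the highest merged locus, at 5742, 5146 and 5074 FPKM. It was followed in WT by Rps2,Snora64 (small ribosomal subunit) at 4554 FPKM, Ftl1,Gm22133 (ferritin light chain) at 4467, Rpl23a,Snord42b at 3750 and Gm11629,Rpl19,Gm27597 at 3269. Each of these 5 highest loci stayed within 2-fold in Pcgf1-/- and in Pcgf1-/-+Pcgf1.

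**Figure D1:**
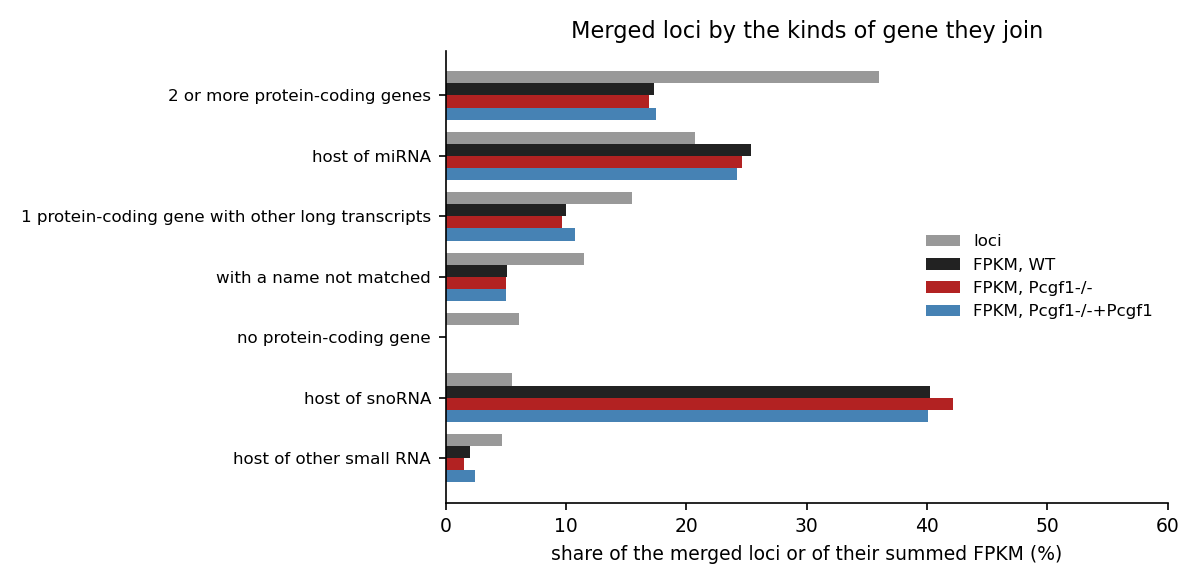
Share of the 922 merged loci (grey) and of their summed FPKM in each of the 3 samples (black, red, blue), in percent, for 7 kinds of locus. Hosts of a snoRNA are 5.53% of the loci and hold 40.1% to 42.2% of the FPKM.

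The value of a merged locus can sum the exons of several genes, so it need not be the level of 1 gene. By these values, merged loci were higher than genes listed under 1 name. Their median was 4.93 FPKM in WT, 4.35 in Pcgf1-/- cells and 4.52 in Pcgf1-/-+Pcgf1, against 0.0198, 0 and 0.0377 FPKM for the 25350 genes listed under 1 name in all 3 samples. In WT 10.5% of merged loci were above 100 FPKM, against 2.34% of single names. Merged loci were 4.46%, 4.42% and 4.54% of the named entries and held 19.4%, 21.1% and 21.3% of their FPKM. Of the 922 loci, 200 (21.7%) were listed at 0 in every sample, against 44.5% of single names.

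The 2 ends of a merged locus often disagreed. Each locus was valued by the larger of 2 sums, that over its first exons (transcript starts) and that over its last exons (transcript ends). Among loci above 0, the sums were equal (within 0.001 FPKM) in 36.0% of merged loci in WT, 38.2% in Pcgf1-/- cells and 37.3% in Pcgf1-/-+Pcgf1, against 72.8%, 73.7% and 73.9% of single names. The last exons were at 0 while the first exons were not in 37.2%, 35.7% and 38.0% of merged loci, and in 14.4%, 14.6% and 14.2% of single names. A merged locus may list several starts and only 1 end, so its value can be that of only 1 of its genes.

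Some genes had no row of their own once merged. In WT, 74 of the 1723 protein-coding genes in merged loci (4.29%) had neither a first nor a last exon row over their annotated exons, against 6 of 17057 single-name genes (0.0352%). The counts were 66 of 1731 and 7 of 17066 in Pcgf1-/- cells and 74 of 1748 and 7 of 17045 in Pcgf1-/-+Pcgf1. A locus takes a single name only by lying on that gene, so the near absence of such cases among single-name genes is fixed by how names are given and is no comparison. Of 740 protein-coding genes that were merged in at least 1 sample and single in another, 71 (9.59%) had no own row in a sample where they were merged.

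**Figure D2:**
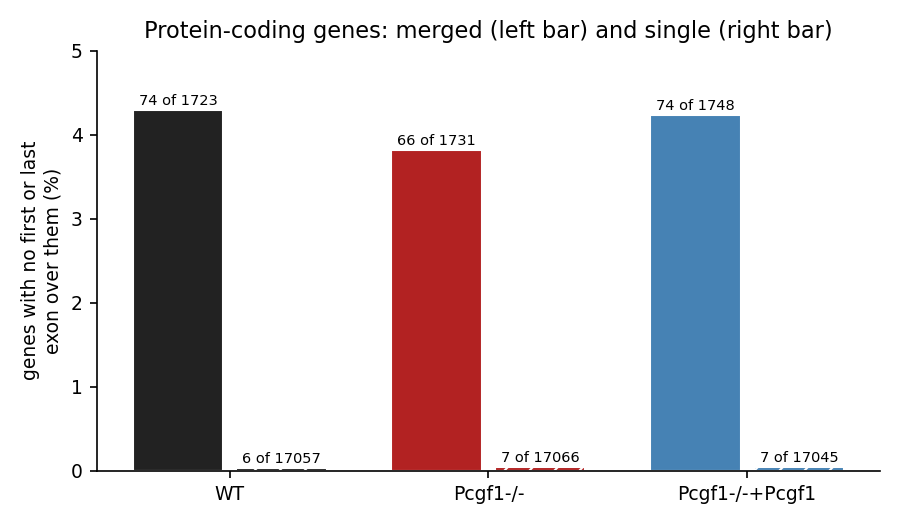
Percent of protein-coding genes with no first or last exon row over their annotated exons, for genes in merged loci (left bar) and genes listed under 1 name (right bar, hatched), in each sample. Merged genes stand at 3.81% to 4.29% in the 3 samples, and single-name genes are near 0 by the way names are given.

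How much of the FPKM could be given back to 1 gene depended on the rule. By strand and annotated gene span, 86.2% of the first and last exon FPKM of merged loci in WT lay over exactly 1 gene of the string, 89.5% in Pcgf1-/- cells and 88.5% in Pcgf1-/-+Pcgf1. A rule that used annotated exons in place of spans gave 88.3%, 90.9% and 90.0%. A stricter rule, by which a first exon had to lie at the annotated start of a gene or a last exon at its annotated end, gave 61.2%, 63.9% and 64.1%, and left 27.5% to 29.4% with no gene. More than 1 gene of the string had signal of its own in 147 of the 1211 loci in WT, 166 of 1202 in Pcgf1-/- cells and 154 of 1234 in Pcgf1-/-+Pcgf1, by span. The library kit does not mark the strand of the RNA, so reads from a gene and an antisense partner could not be told apart.

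Kdm2b, the CG-binding subunit of PRC1.1, was merged with RP23-214I6.5 and Gm2479 in every sample. Its locus was at 22.1 FPKM in WT, 18.99 in Pcgf1-/- cells and 21.1 in Pcgf1-/-+Pcgf1, and all of this lay within the span of Kdm2b (chr5:122870665-122989823, minus strand). By the stricter rule of annotated starts and ends none of it would go to Kdm2b, in any sample, since the first exon at the outermost annotated start, chr5:122989625-122989794, was listed at 0. The log2 ratios were -0.22 for Pcgf1-/- over WT, 0.15 for Pcgf1-/-+Pcgf1 over Pcgf1-/- and -0.07 for Pcgf1-/-+Pcgf1 over WT. The value was made up of separate first exons. The exon chr5:122988868-122989099, which begins at the upstream RefSeq start printed above, was at 4.96, 4.09 and 3.35 FPKM. The exon chr5:122900149-122900355, which begins 5 bases from the internal start with 49 CG, was at 11.4, 14.9 and 10.5 FPKM and was the highest Kdm2b first exon in each sample. The internal start gives the short form of the protein that lacks the demethylase domain and keeps the CG-binding zinc finger. Another exon, chr5:122917674-122917724, was at 5.83 FPKM in WT and listed at 0 in the others, and the exon chr5:122921905-122922107 was at 7.27 FPKM in Pcgf1-/-+Pcgf1 and listed at 0 in the others. The last exon of the locus was listed at 0 in every sample, so a value from transcript ends alone would have put Kdm2b at 0.

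Sox2, a core pluripotency factor, has 1 exon and lies inside the long non-coding gene Sox2ot. In WT both were in the string Sox2ot,Gm27403,Mir1897,Gm27611,Sox2, whose value was 0.213 FPKM, and none of the rows of any kind lay over Sox2. The string was at 30.2 FPKM in Pcgf1-/-, where a first exon at chr3:34649842-34651121, starting 153 bases before the RefSeq start, carried all of it. In Pcgf1-/-+Pcgf1 Sox2 was listed alone at 29.3 FPKM, with its first exon at chr3:34649821-34650907, and Sox2ot was in another string at 0.317 FPKM. A ratio of the merged string between Pcgf1-/- and WT would therefore compare Sox2 with Sox2ot. Sox2 in WT had no value here, and no change of Sox2 against WT can be given.

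**Figure D3:**
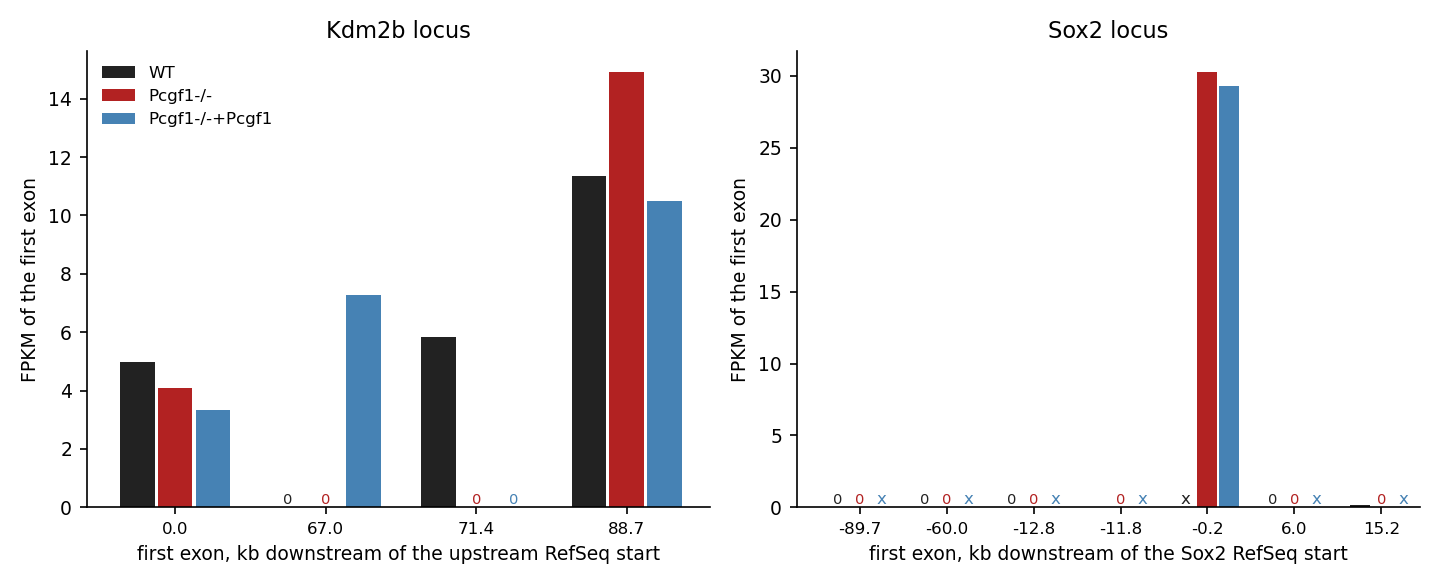
FPKM of first exons (bars) in WT (black), Pcgf1-/- (red) and Pcgf1-/-+Pcgf1 (blue) at the Kdm2b locus, by distance in kb from its upstream RefSeq start, and at the Sox2 locus, by distance from the Sox2 start. A 0 marks a row listed at 0 and an x the lack of a row in the locus that carries the name Sox2. Kdm2b shows its highest exon at 88.7 kb in all 3 samples, and Sox2 an exon at its start in Pcgf1-/- and Pcgf1-/-+Pcgf1 and no row in WT.

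Rnf2, the E3 ligase of PRC1, was listed alone in WT at 36.9 FPKM and in Pcgf1-/- at 39.4 FPKM and was merged with Gm36527 in Pcgf1-/-+Pcgf1 at 28.3 FPKM. In each sample the value lay on the first exon chr1:151500719-151500833, at 24.6, 39.4 and 28.3 FPKM, with another 12.3 FPKM in WT on the exon chr1:151483126-151483198. None of the pairs of samples differed by 2-fold. By annotated starts and ends, a rule applied only where a gene was merged, Rnf2 would be at 0 in Pcgf1-/-+Pcgf1. Listed alone it kept its whole value with the same first exon, so this 0 does not mark a difference between samples. Neurod1, a neurogenic transcription factor, was merged with Cerkl in all samples, and every first and last exon of Cerkl,Neurod1 was listed at 0 in all of them, including the exon chr2:79456551-79456785, which covers the Neurod1 start printed above. Without counts, no limit can be put on a value listed at 0.

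Rnls, the renalase gene, was merged with the lipase genes Lipo4, Lipo1 and Lipo2 at 0.791 FPKM in WT and 1.34 in Pcgf1-/-, but all of its first and last exons lay outside Rnls. In Pcgf1-/-+Pcgf1 Rnls was listed alone at 0.340 FPKM. The value of the string in WT and Pcgf1-/- was that of the first exon chr19:33761598-33761951, which lies between Lipo2 and Lipo1. It was therefore not that of Rnls. Internal event rows over Rnls reached 0.277 FPKM in WT and were listed at 0 in Pcgf1-/-.

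Of 47 PRC1 and PRC2 subunits, 5 were merged in any sample and 2 in all. Besides Kdm2b and Rnf2 these were Skp1a, Dcaf7 and Cbx6. Skp1a, a partner of Kdm2b, was at 345 FPKM in WT, where it was merged with Ppp2ca, and at 349 and 308 FPKM alone in Pcgf1-/- and Pcgf1-/-+Pcgf1, and its first and last exons had the same coordinates in all samples. Dcaf7, a subunit of other PRC1 variants, was at 26.6 and 25.3 FPKM alone and at 24.1 FPKM in Pcgf1-/-+Pcgf1, where it was merged with Kcnh6. The string Nptxr,Npcd,Cbx6 was at 11.1, 12.9 and 10.5 FPKM, and no row lay over Cbx6 alone, since Npcd overlaps nearly all of it. By annotated starts and ends in place of spans, 8.79, 9.14 and 7.17 FPKM of this string would go to Cbx6. Over all 47 subunits, 0 were higher and 2, Pcgf1 and Phc1, were lower past 2-fold in Pcgf1-/- than in WT, against 2.16% and 4.98% of all genes listed under 1 name, and none of the merged ones was called.

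Among 23 pluripotency factors, 3 were merged in any sample. Dppa5a, a KH-domain protein of ES cells, was at 1293 FPKM alone in WT. In Pcgf1-/- and Pcgf1-/-+Pcgf1 it was merged with the neighbouring oocyte gene Ooep, and the locus had its last exon over Dppa5a, at 2048 and 1845 FPKM, and its first exon over Ooep, at 12.8 and 14.7 FPKM. Ooep alone in WT was at 6.19 FPKM. The 2 ends of this merged locus thus belonged to genes of very different level. Tfcp2l1, a transcription factor of naive pluripotency, was merged with the small RNA gene Gm23497, and its locus was at 9.65 FPKM in WT, 19.8 in Pcgf1-/- cells and 17.3 in Pcgf1-/-+Pcgf1. The log2 ratio of Pcgf1-/- over WT was 1.03, just past 2-fold, and that of Pcgf1-/-+Pcgf1 over WT was 0.84. On the first exon chr1:118627945-118628102 the samples were at 6.78, 19.8 and 17.3 FPKM, with log2 ratios of 1.53 and 1.34 over WT, both past 2-fold.

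The cultures held feeder fibroblasts, and 4 of 25 fibroblast markers were merged in any sample. Col3a1 (collagen III) was at 0.180, 0.0250 and 0.0349 FPKM, the Pdgfra locus at 0.0593, 0.133 and 0.146 FPKM and S100a3,Gm42674,S100a4 at 0.380, 0.704 and 0.579 FPKM. Of the last string, 0.259, 0.242 and 0.243 FPKM lay over exons of S100a4 alone, and the marker counts below use these values. Tagln, an actin-binding protein of smooth muscle and fibroblasts, was at 34.0 FPKM alone in WT and merged with Sidt2 in the others, at 14.9 and 10.2 FPKM, with no row over Tagln. Sidt2 alone was at 11.0 FPKM in WT. Of the 24 markers with a value in every sample, 6 were lower and 0 higher in Pcgf1-/- than in WT past 2-fold, against 4.98% and 2.16% of all genes listed under 1 name, and in Pcgf1-/-+Pcgf1 7 were higher and 1 lower than in Pcgf1-/-, against 6.35% and 2.22%. Col1a1 was at 1.88, 0.390 and 2.21 FPKM and Thy1 at 14.2, 6.39 and 13.5 FPKM, so that a part of the markers fell and returned. Col1a2, at 0.635, 0.0213 and 0.148 FPKM, returned only in part and stayed lower past 2-fold in Pcgf1-/-+Pcgf1 than in WT. Others did not follow this course, such as Twist1 at 2.09, 3.19 and 0.763 FPKM. In Pcgf1-/-+Pcgf1 against WT, 3 of the 24 were higher and 3 lower, against 3.99% and 2.36% of genes listed under 1 name. The summed level, most of it from Sparc and Fn1, was 407, 392 and 388 FPKM in WT, Pcgf1-/- and Pcgf1-/-+Pcgf1. Postn was listed at 0 in each. What part feeder RNA had in the merged loci was not tested, and fewer cells of a type and less RNA per cell cannot be told apart. Of the 23 ectoderm and neural regulators only Neurod1 was merged, and of the 16 mesoderm and endoderm regulators 0 were.

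In Pcgf1-/- against WT, 23 of the 922 loci were higher past 2-fold (2.49%), against 2.16% of genes listed under 1 name, and 55 were lower (5.97%), against 4.98%. The median log2 ratio was 0 for both kinds, since many values are 0. Restricted to entries of at least 1 FPKM in 1 of the 2 samples, 19 of 598 loci were higher (3.18%) and 32 lower (5.35%), against 2.98% and 6.11% of 9438 single names, with medians of -0.09 and -0.09. The share of merged loci that were called was thus near that of the single names in each direction.

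The largest falls included host transcripts of imprinted domains. Meg3, a non-coding RNA of the Dlk1-Dio3 domain, was at 30.0 FPKM in WT, 9.02 in Pcgf1-/- cells and 11.8 in Pcgf1-/-+Pcgf1, so that both cell lines with the deletion were below WT by first exons. The log2 ratio was -1.73 for Pcgf1-/- over WT and -1.34 for Pcgf1-/-+Pcgf1 over WT. Its first exon chr12:109541001-109541099 was at 28.7, 6.50 and 11.0 FPKM. By its last exon Meg3 was at 14.4, 4.85 and 10.6 FPKM, so that Pcgf1-/-+Pcgf1 was within 2-fold of WT there. Mirg, the host of 9 of the miRNA hairpins printed above, was at 11.3, 3.81 and 5.55 FPKM, with log2 ratios of -1.54 and -1.01 over WT, the second just past 2-fold. Rian, the snoRNA host between them, was merged under a string with 1 more name in Pcgf1-/-+Pcgf1, so it was not among the 922, and its locus was at 102, 52.0 and 90.6 FPKM. Dlk1, the protein-coding gene of the domain that is expressed from the other parental allele, was listed alone at 9.15, 7.51 and 14.7 FPKM, within 2-fold in Pcgf1-/- against WT.

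Usp29,Gm27675 and the Snrpn locus, also imprinted, were lower in Pcgf1-/- cells and higher again in Pcgf1-/-+Pcgf1. Usp29,Gm27675 was at 1.07, 0.0207 and 0.678 FPKM. Its first exon with signal was chr7:6730583-6731302 in each sample, but its last exon differed. That was chr7:6766289-6766817 in WT, chr7:6961132-6967216, near the annotated end of Usp29, in Pcgf1-/-, and chr7:6766289-6766823 in Pcgf1-/-+Pcgf1. The values are thus of transcripts with different ends. Its neighbour Peg3, listed alone, was at 32.2, 15.8 and 37.9 FPKM. Snhg14,Gm38393,Snord107,Snrpn, which holds the splicing protein gene Snrpn and was picked after its values were seen, was at 115, 52.6 and 106 FPKM. In a list of 50 well-known imprinted genes that was also written after values had been seen, 10 of the 922 loci held a member, of which 0 were higher and 4 lower in Pcgf1-/- than in WT, with a median log2 ratio of -0.87. Of all 922 loci 2.49% were higher and 5.97% lower, with a median of 0. The 4 were the loci of Meg3, Mirg, Usp29 and Snrpn, and a list chosen in this way is no independent evidence of a direction. Platr12,Zdbf2 was at 6.63, 10.4 and 10.6 FPKM, above WT but within 2-fold. The loci Snhg14,Gm22128 and Snhg14,Gm22285, both below 0.3 FPKM in every sample, are among the 10, overlap the same transcript and were lowest in Pcgf1-/-+Pcgf1.

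Other falls ended at a listed value of 0. Prss53,Gm21974,Vkorc1, which holds the vitamin K epoxide reductase subunit Vkorc1, was at 78.2 FPKM in WT, listed at 0 in Pcgf1-/- cells and at 62.0 FPKM in Pcgf1-/-+Pcgf1. All of it was on the 46-base first exon chr7:127895409-127895454, and the other 4 first and last exons of the locus were listed at 0 in every sample. That exon begins at the annotated start of Gm21974 and lies within the spans of both Gm21974 and Vkorc1, so its value cannot be given to Vkorc1 alone. Gm6939,Slx1b (a nuclease subunit) was at 3.12, 0 and 2.58 FPKM, Ampd3,AC122844.1 (AMP deaminase) at 1.25, 0 and 1.54 FPKM and Cfap43,Gm22240 (a cilium protein) at 2.71, 0 and 0 FPKM. The remaining named falls were Gm17322,Cyp11a1 at 2.19, 0.331 and 1.39 FPKM, Duxbl1,Duxbl2,Duxbl3 at 2.07, 0.377 and 0.548, Esp6,Esp6Esp5 at 1.46, 0.234 and 0.538, and Col7a1,Mir711 (collagen VII) at 1.98, 0.447 and 1.73. The Duxbl and Trim34 loci hold near-identical gene copies whose reads the counting may have split.

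Among the rises, Yjefn3,Ndufa13 was listed at 0 in WT, at 53.1 FPKM in Pcgf1-/- cells and at 0 in Pcgf1-/-+Pcgf1. Ndufa13 is a subunit of respiratory complex I that respiring cells need. In Pcgf1-/- the first exons chr8:69902969-69903036 and chr8:69901881-69902558, at 32.6 and 20.6 FPKM, began at or before Ndufa13. The exon at 32.6 FPKM lay outside the annotated spans of both genes, and only the one at 20.6 FPKM overlapped Ndufa13. In WT and Pcgf1-/-+Pcgf1 the locus had no such rows and none of any kind lay over Ndufa13. In those 2 samples the value of 0 was that of Yjefn3 rows alone. Rps20,Gm24016, a small-subunit ribosomal protein gene, was at 182, 2248 and 1316 FPKM. In WT its value came from the last exon chr4:3831334-3834683 alone, the first exon listed there being chr4:3835192-3835488 at 0, while in the others the first exon began further upstream and was at 2248 and 1105 FPKM. On the same last exon the samples were at 182, 1492 and 1316 FPKM. Of the 19 loci with a ribosomal protein gene, 2 were higher past 2-fold in Pcgf1-/- than in WT and 0 lower, against 2.49% and 5.97% of all 922 loci. The other was Rpl21,Gm25091,Gm23202 at 481, 1299 and 448 FPKM, and the median log2 ratio of the 19 was -0.06.

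The rise of Anxa3,Gm42603, an annexin gene, rested on values above 0 in every sample. It was at 8.57 FPKM in WT, 30.4 in Pcgf1-/- cells and 9.59 in Pcgf1-/-+Pcgf1, a log2 ratio of 1.81 over WT that was gone in Pcgf1-/-+Pcgf1. That rise was on the first exon chr5:96793385-96793563. Its last exons stood closer together, at 5.81, 7.33 and 9.59 FPKM. The locus 2210011C24Rik,Mir1199 was at 2.95, 8.79 and 3.14 FPKM, but its value came from last exons in WT and Pcgf1-/- (first exons at 0) and from first exons in Pcgf1-/-+Pcgf1 (last exons at 0). The locus Hist3h2a,Trim17, a histone H2A gene inside a ubiquitin ligase gene, was at 0.306, 1.72 and 0.289 FPKM. Its last exon lay at the end of Trim17 in WT and Pcgf1-/-+Pcgf1, and at the end of Hist3h2a (chr11:58956092-58956839) in Pcgf1-/-. The triplet thus compares transcripts with different ends. Agpat9,Gm42987 (a glycerol-3-phosphate acyltransferase) was at 1.01, 3.18 and 2.13 FPKM and Rbm12b2,Rbm12b1 at 1.22, 3.78 and 2.67. Listed at 0 in WT were Cmc4,Mtcp1, at 2.06 and 1.81 FPKM in Pcgf1-/- and Pcgf1-/-+Pcgf1, Trim34a,Trim34b at 1.41 and 1.42, and Pde12,Mir7672 at 5.27 FPKM in Pcgf1-/- cells and 0 in Pcgf1-/-+Pcgf1.

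**Figure D4:**
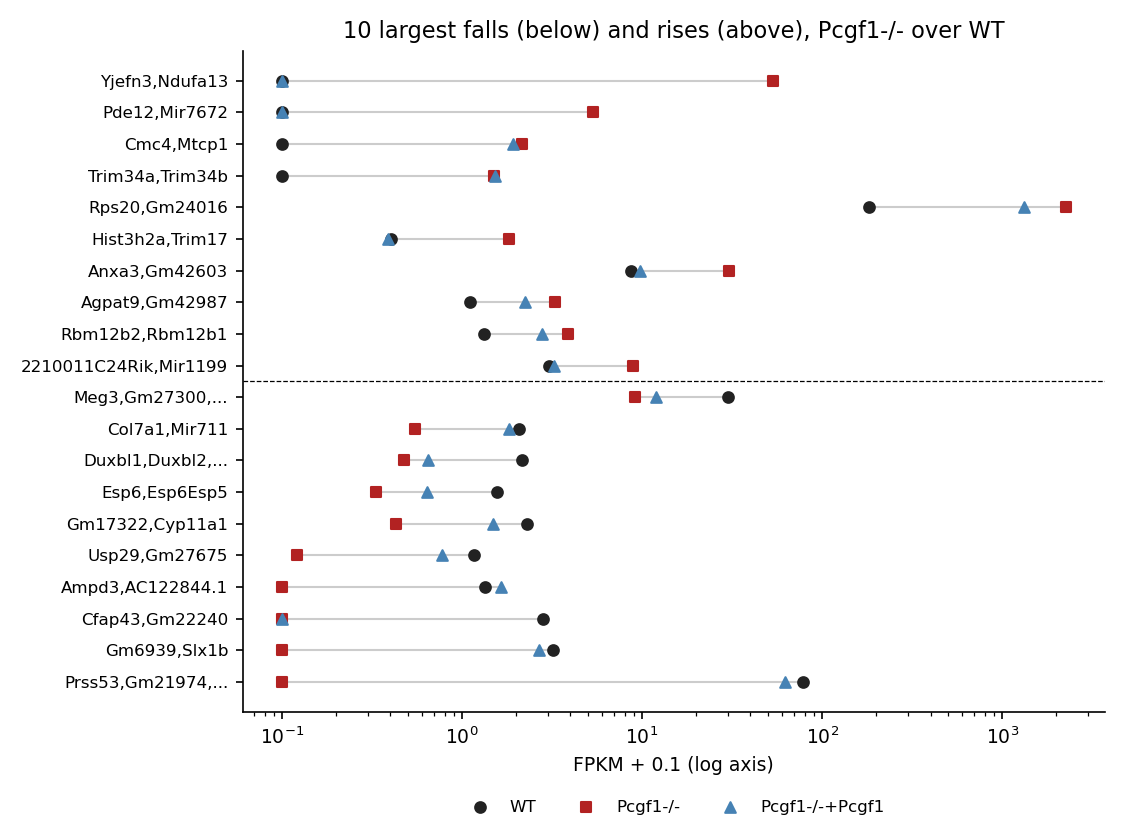
FPKM plus 0.1 on a log axis for the 10 merged loci with the largest falls (below the dashed line) and the 10 with the largest rises (above it) in Pcgf1-/- over WT, among loci of at least 1 FPKM in 1 of the 2 samples. Circles are WT, squares Pcgf1-/- and triangles Pcgf1-/-+Pcgf1, and points at 0.1 are values listed at 0. Prss53,Gm21974,Vkorc1 runs from 78.2 FPKM in WT to 0 in Pcgf1-/-, and Yjefn3,Ndufa13 from 0 to 53.1.

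In Pcgf1-/-+Pcgf1 against Pcgf1-/-, 59 of the 922 loci were higher past 2-fold (6.40%), against 6.35% of single names, and 29 were lower (3.15%), against 2.22%. At 1 FPKM or more the counts were 30 and 24 of 595 loci (5.04% and 4.03%), against 7.23% and 3.60% of single names. This comparison shares its Pcgf1-/- library with the one before, so a value that is low or missing in that library enters both. Among the largest rises were Prss53,Gm21974,Vkorc1, Gm6939,Slx1b and Ampd3,AC122844.1, given above, and the potassium channel locus Kcnab2,Gm16334, which was also listed at 0 in Pcgf1-/- (0.439 FPKM in WT and 1.60 in Pcgf1-/-+Pcgf1). The largest falls ended at 0. Among them were Yjefn3,Ndufa13, Ahsa2,AL672049.1 (a chaperone cofactor, at 15.4 FPKM in WT and 17.8 in Pcgf1-/-), Pde12,Mir7672 and Prkar1b,Gm15672 (a protein kinase A regulatory subunit, at 3.02 and 3.06 FPKM).

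**Figure D5:**
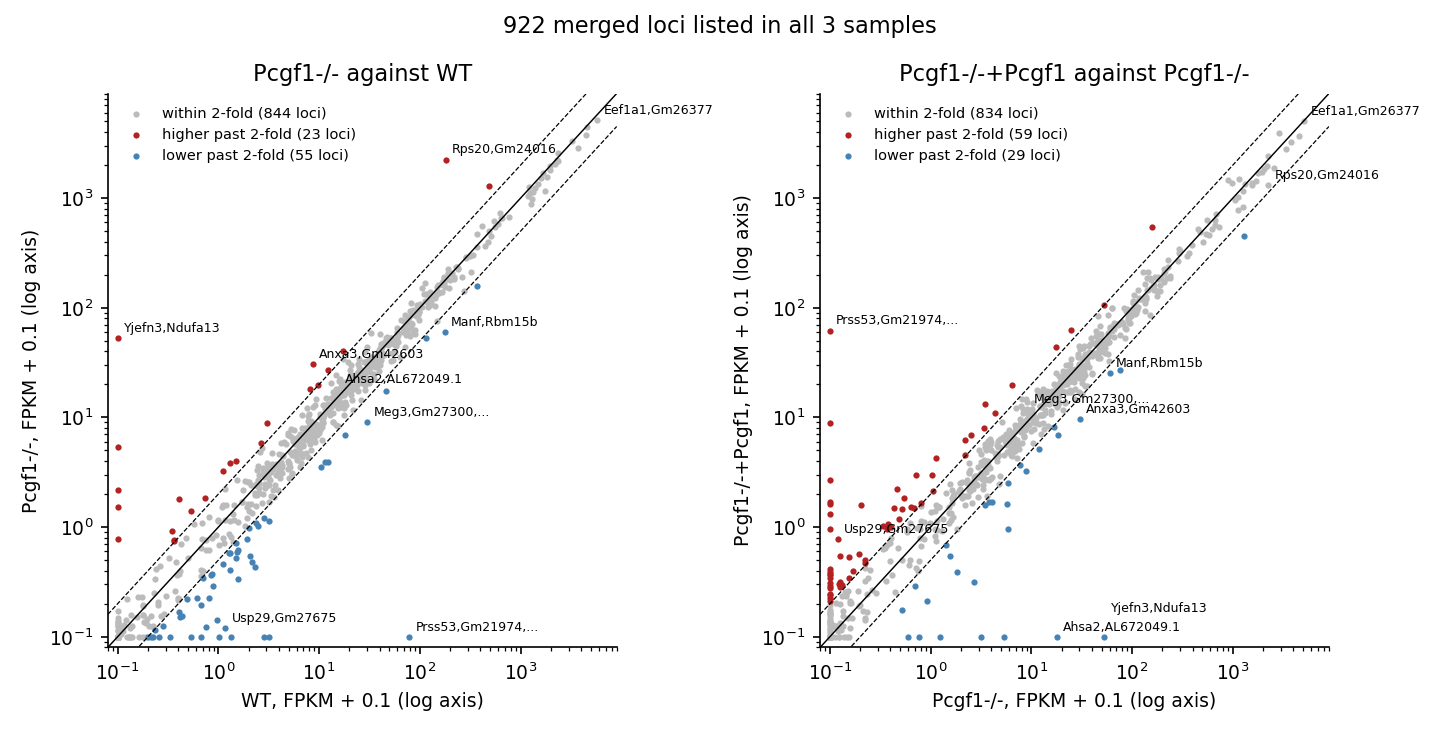
Each point is 1 of the 922 merged loci, with FPKM plus 0.1 in Pcgf1-/- against WT (left) and in Pcgf1-/-+Pcgf1 against Pcgf1-/- (right) on log axes. The solid line marks equal values and the dashed lines 2-fold, with 23 loci higher and 55 lower on the left and 59 higher and 29 lower on the right. Points along the axes at 0.1 are loci listed at 0 in 1 sample.

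In Pcgf1-/-+Pcgf1 against WT, 37 loci were higher past 2-fold (4.01%), against 3.99% of single names, and 40 were lower (4.34%), against 2.36%. At 1 FPKM or more, 19 and 28 of 600 loci were higher and lower (3.17% and 4.67%), against 3.84% and 2.65% of single names. Over 5875 single-name genes above 5 FPKM in every sample the typical value was 0.12 lower on the log2 scale in Pcgf1-/-+Pcgf1 than in WT, and with this shift removed 39 merged loci were higher and 32 lower. Single names were not recounted with the shift removed, so the rescaled counts have no background and cannot be set against the shares above. The largest fall among loci with values in every sample was Manf,Rbm15b, at 176 FPKM in WT, 60.2 in Pcgf1-/- cells and 25.1 in Pcgf1-/-+Pcgf1, a log2 ratio of -2.81. Its value came from the last exon chr9:106887415-106889225, which lies mostly in Manf, the gene of a secreted protein of the endoplasmic reticulum stress response, and only its end overlaps the RNA-binding protein gene Rbm15b. The other named falls were Ahsa2,AL672049.1, Prkar1b,Gm15672 and Cfap43,Gm22240, given above, and C920025E04Rik,Gm7030 at 1.42, 0.499 and 0 FPKM. The named rises were Cmc4,Mtcp1, Trim34a,Trim34b and Rps20,Gm24016, given above, and Slpi,Mir7678 (a protease inhibitor), at 0.0894, 0 and 1.22 FPKM.

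Exact zeros were part of many of these differences. Of the 922 loci, 65 were at 0 in some samples and above 0 in others, and 5 were listed at 0 in 1 sample and above 5 FPKM in another (0.542%), against 57 of 25350 single names (0.225%). Among those 5 were the loci of Vkorc1, Ndufa13, Pde12 and Ahsa2, which are in the named rises and falls above. Only an entry above 5 FPKM in some sample could be counted in these shares, and merged loci reached such levels more often. Their upper quartile in WT was 28.7 FPKM, against 5.33 for single names, so the shares are not of like sets and no excess is read from them. Whether the zeros are failed estimates was not tested. The zeros of Yjefn3,Ndufa13 were those of Yjefn3 rows, whereas the Ahsa2 locus had rows over Ahsa2 in every sample.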

How the data were processed

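RNA from 3 mouse ES cell samples (WT, Pcgf1-/- and Pcgf1-/-+Pcgf1, 1 library each) had been sequenced as poly(A) libraries. Per the labels, the submitters' processing notes name TopHat2 2.0.12, Cufflinks 2.2.1, HTSeq 0.6.0 and the build mm10. The deposited values are FPKM, which the authors gave per sample for the transcript start, transcript end and splicing events of assembled loci. FPKM is normalised for exon length and library size, so the read depth is unknown and no counting interval can be given. No replicate exists, so no test was made and the groups are single values.

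Rows were joined by the reference gene name. A locus was valued by the larger of its summed start and summed end FPKM, and log2 ratios used FPKM + 0.1. Names were matched to GENCODE vM21 on GRCm38, the build of mm10, within 50 kb of the locus, and else to older RefSeq symbols. In 9 strings an older symbol belonged to a gene already in the string and was counted once. Rows were given to a gene by strand and span. Scripts (Python 3.11.15, pandas 2.3.3) were tested on simulated data. The members and lists were chosen with earlier results of these data known. Named loci were those with a gene of the study or of the marker lists, the 10 largest rises and 10 largest falls in Pcgf1-/- over WT, the 5 and 5 largest in the other comparisons (at least 1 FPKM in 1 sample), the 5 highest in WT and the 5 with most names. Some loci that this rule names are not reported here. Alternatives were other pseudocounts, a level filter, starts or ends alone, rescaling, matching by position and other ways of giving rows to genes. No column of the authors' own comparisons was used.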

Additional observations from a re-analysis of the deposited data

How the results depend on the processing

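The counts of merged loci past 2-fold moved most with the treatment of low values. With 1 FPKM added in place of 0.1 they fell from 78 to 32 for Pcgf1-/- against WT (15 higher, 17 lower), from 88 to 36 for Pcgf1-/-+Pcgf1 against Pcgf1-/- and from 77 to 29 for Pcgf1-/-+Pcgf1 against WT. Among loci of at least 1 FPKM in 1 of the 2 samples they were 51, 54 and 47, since fewer loci are compared. With 0.01 FPKM added, with starts or ends alone, after rescaling and with loci matched by position (1002 positions), they were 77 to 115, 88 to 132 and 71 to 109, and among loci above 0 in both samples, an alternative added after the data were seen, 61, 62 and 53.

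Of 481 recomputed single ratios, 438 stayed on their side of 2-fold in the same direction, 30 dropped within 2-fold, 10 went past it and 3 reversed. Transcript ends alone gave 21 of the 30, and there Esp6,Esp6Esp5 had a log2 ratio of 1.74 for Pcgf1-/- over WT. The way of giving rows to genes changed the calls of 2 genes. Each rule was applied only where a gene was merged, and a gene listed alone kept its whole value. The ratios past 2-fold of these 2 genes therefore set unlike values against each other. Sox2 in Pcgf1-/-+Pcgf1 over Pcgf1-/- was at 8.20 by span, where its exon is shared with Sox2ot and given to neither, and at -0.046 both by annotated starts and ends and by exons (the latter added after the data were seen). Rnf2 in Pcgf1-/-+Pcgf1 was at -0.48 over Pcgf1-/- and -0.38 over WT by span and by exons, and at -8.63 and -8.53 by annotated starts and ends, which leave it at 0 in Pcgf1-/-+Pcgf1. No paired analysis was possible because each condition had 1 sample, and for the same reason no replicate could be left out. Depth is unknown, and a value listed at 0 cannot be told from a failed estimate.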

Other observations

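The locus Arrb2,Mir7115, which holds the signalling adaptor beta-arrestin 2, was listed at 0 for all 3 first exons and all 3 last exons in every sample, although internal event rows of the same locus were above 0. The highest internal row was at 33.0 FPKM in WT, 20.0 in Pcgf1-/- cells and 29.7 in Pcgf1-/-+Pcgf1. Among merged loci at 0 by first and last exons (236 in WT, 241 in Pcgf1-/- cells and 219 in Pcgf1-/-+Pcgf1), it was the only one with an internal row above 0.

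Several merged loci that were picked after their values were seen had values above 0 in every sample and differed past 2-fold between Pcgf1-/- and WT. Spp1,Gm42793, the gene of the secreted protein osteopontin, was at 373 FPKM in WT, 156 in Pcgf1-/- cells and 542 in Pcgf1-/-+Pcgf1. Tdrd12,Gm18558, a Tudor-domain gene of the piRNA pathway, was at 46.0, 17.3 and 43.6 FPKM. Prnp,Gm28045,Prnd, with the prion protein gene, was at 10.5, 3.46 and 5.46 FPKM. In the other direction, Ddah1,Rpl36a-ps2 was at 17.0, 40.0 and 25.6 FPKM and Gpsm3,Pbx2 at 12.1, 26.9 and 14.6 FPKM.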
